A study of Mus musculus with 12 samples.

Results

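Imprinted genes, which are read mainly from the copy of one parent, were followed in a mouse lung tumour line. The 10 genes are Nnat, Peg3, Mest, H19, Igf2, Dlk1, Grb10, Cdkn1c, Plagl1 and Peg10. Members are all probe sets that the platform annotation pairs with one of these symbols and no other, and the probe set with the highest mean over the 12 arrays leads for its gene. By this rule 9 of the 10 genes had 19 of the 45101 probe sets, and these are 9 of 18193 genes measured. H19 is named only. The group was proposed because of the difference in Nnat between antibody-treated and untreated cells, so that difference is given as a description with no test.

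Imprinting is set by DNA methylation in the germ line and kept through cell division. Many imprinted genes act in growth before birth and are turned down in adult tissues, the lung among them, and several are read as signs of growth signalling or of progenitor cells in tumours. An expression array adds up both parental copies, so the values here are total levels and say nothing of which copy was read.

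The cells were A2C12, an established lung tumour cell line from a C57BL/6 background mouse that was double transgenic for c-myc and c-raf, a background that every group shares. Flow cytometry with the DNA dye Hoechst split them into side population (SP) cells, which pump the dye out and stay dim, and the remaining non-SP cells. Each fraction came from cells without antibody and from cells given an anti-EpCAM antibody, which binds an adhesion protein of epithelial cells, at 100 µg/ml for 48 h. Crossing fraction with treatment gave 4 groups of 3 arrays each, labelled as biological replicates of this one line.

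Levels are log2 array signals, so a difference of 1 is a 2-fold change, and levels of different probe sets are not compared as amounts. Array medians ran from 5.72 to 6.06, and the lower quartile of all probe sets on an array from 4.22 to 4.65. The 6 epithelial markers had means from 4.70 (Krt7) to 11.71 (Krt19), with Epcam at 8.11. The 9 alveolar and club cell markers ran from 4.84 (Scgb1a1) to 9.01 (Abca3), with the surfactant gene Sftpc at 5.64. The 8 fibroblast markers ran from 4.15 (Lum) to 12.58 (Col1a2), so each list held genes on both sides of the array medians. SP and non-SP arrays of one replicate number and treatment deviated together (r across genes from 0.55 to 0.84), so such a pair is treated as one culture, a link that the labels leave unsaid. The treated culture numbered 2 had the largest gap between 3′ and 5′ actin probes (0.89 and 1.03 on the log2 scale, 0.18 to 0.73 on the other 10 arrays). Antibody differences of the 9 genes over culture means are also given without it.

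Promoter sequences are shown for Nnat, for Blcap, which encodes a small membrane protein and whose bounds enclose Nnat on the opposite strand of chromosome 2, and for Grb10, since these genes carry the differences described below. Each is the 250 bases before an annotated start, from RefSeq on build GRCm38.p6, 5′ to 3′ on the gene's strand. Capitals mark CG pairs, the bases at which imprints are written as methylation. The arrays measured no methylation.

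Nnat, chr2:157559828-157560077, plus strand: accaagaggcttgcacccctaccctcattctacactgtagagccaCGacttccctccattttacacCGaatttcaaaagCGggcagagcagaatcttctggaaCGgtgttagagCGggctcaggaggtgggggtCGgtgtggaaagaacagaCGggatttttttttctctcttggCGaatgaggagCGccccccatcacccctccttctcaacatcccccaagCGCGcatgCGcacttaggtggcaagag

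Blcap, chr2:157566362-157566611, minus strand: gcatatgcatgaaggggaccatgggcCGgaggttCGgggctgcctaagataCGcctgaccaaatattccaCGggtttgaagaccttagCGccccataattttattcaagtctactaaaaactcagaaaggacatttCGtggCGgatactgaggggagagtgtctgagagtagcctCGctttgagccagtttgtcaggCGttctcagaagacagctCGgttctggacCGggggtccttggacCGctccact

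Grb10, chr11:12037421-12037670, minus strand: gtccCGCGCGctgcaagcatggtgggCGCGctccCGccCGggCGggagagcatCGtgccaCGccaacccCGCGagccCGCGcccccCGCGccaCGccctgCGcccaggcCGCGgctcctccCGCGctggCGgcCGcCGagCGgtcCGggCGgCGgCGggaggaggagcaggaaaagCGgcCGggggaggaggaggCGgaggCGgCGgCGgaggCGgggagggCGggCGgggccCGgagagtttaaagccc

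Grb10, chr11:12027972-12028221, minus strand: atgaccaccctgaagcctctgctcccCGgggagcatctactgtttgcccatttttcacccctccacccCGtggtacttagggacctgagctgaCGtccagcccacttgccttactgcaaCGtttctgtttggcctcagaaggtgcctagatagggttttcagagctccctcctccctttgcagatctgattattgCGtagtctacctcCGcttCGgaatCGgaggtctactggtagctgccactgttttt

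The Nnat and Blcap windows each held 12 CG pairs, a number reached by 33.5% of the 32851 promoter windows in the table, whose median was 6. The first Grb10 window held 40, reached by 1.3% of windows, and the second 8, reached by 43.0%. The letters TATAAA (12.4% of windows) and GGGCGG (32.7% of windows), searched on both strands, were not on the Nnat or Blcap window. Of the 9 measured genes, 7 had 13 such windows in all, and the 4 Igf2 windows held 1, 10, 22 and 6 CG pairs.

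Nnat encodes neuronatin, a small membrane protein of the endoplasmic reticulum that is read from the paternal copy and is best known from the developing brain and from endocrine cells. Its one probe set gave log2 levels of 3.51, 3.46 and 3.83 in untreated non-SP cells and of 3.84, 3.63 and 3.79 in untreated SP cells. After the antibody it gave 4.26, 4.20 and 4.40 in non-SP and 4.36, 4.30 and 4.71 in SP cells. All 6 treated arrays thus lay above all 6 untreated arrays, with the highest untreated at 3.84 and the lowest treated at 4.20. The signal was low: the untreated levels were under the lower quartile of each array and the treated ones lay on both sides of it.

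The order of the 4 groups for Nnat was untreated non-SP (3.60 ± 0.20, SD, n = 3), then untreated SP (3.75 ± 0.11), treated non-SP (4.29 ± 0.11) and treated SP cells (4.46 ± 0.22). Neighbours within a treatment overlapped, and the groups on either side of the treatment step did not. The antibody difference was 0.69 ± 0.17 (SE) in non-SP cells and 0.71 ± 0.17 in SP cells, and 0.70 ± 0.17 over culture means, which is 1.62-fold. The median gene differed by -0.11 over culture means, so relative to it the Nnat difference was 0.81. Without the treated culture numbered 2 it was 0.76. Since the gene was chosen for this difference, no p is attached to it.

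As background, 11 of 18193 genes (0.0605%) had all 6 treated arrays above all 6 untreated ones and 165 (0.907%) had them all below, so separation upward was the less frequent direction in the deposited values. That imbalance depends on scaling: with each array centred on its median, 179 genes were above and 32 below, and with quantile normalization 83 and 47. The median gene then differed by 0.06 and 0.01. Nnat was separated upward under the 3 scalings, with differences of 0.87 when centred and 0.79 when quantile normalized. Among the 63 imprinted genes measured (the 9 above and 54 others), Nnat was the one that was separated upward under each scaling. Since Nnat was chosen for this difference, its place among these genes is a description and no support for it.

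**Figure D1:**
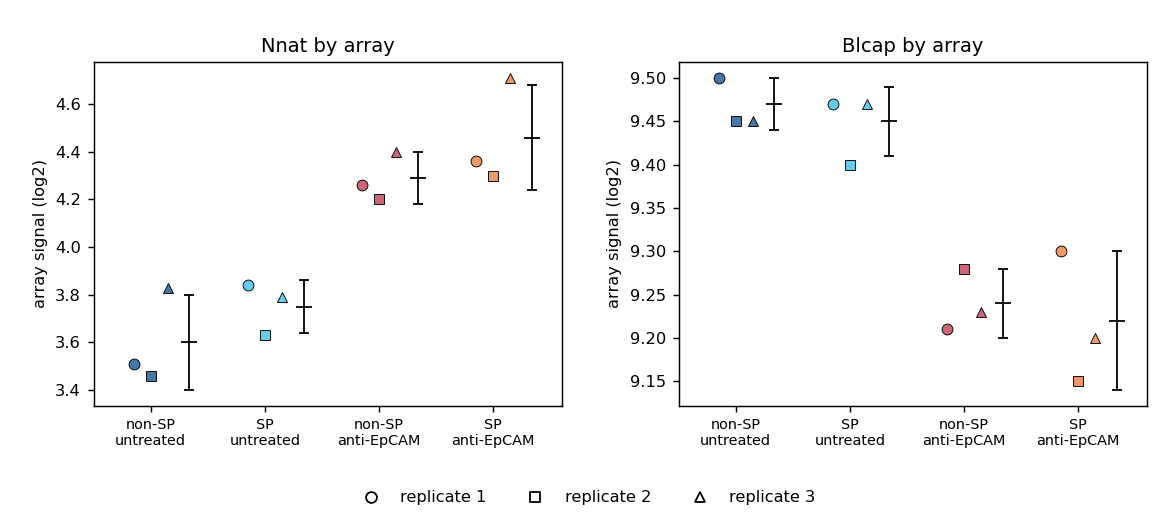
Log2 array signal of Nnat (left) and Blcap (right) in each of the 12 arrays, by group; points are arrays, marker shapes are replicate numbers, and the dashes with bars beside them are group means with SD. The 6 treated arrays lie at 4.20 to 4.71 for Nnat, above 3.46 to 3.84 without antibody, and at 9.15 to 9.30 for Blcap, below 9.40 to 9.50.

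Blcap lay the other way, by less. Its levels were 9.50, 9.45 and 9.45 in untreated non-SP cells, 9.47, 9.40 and 9.47 in untreated SP cells, 9.21, 9.28 and 9.23 in treated non-SP cells and 9.30, 9.15 and 9.20 in treated SP cells. In the deposited values all treated arrays were below all untreated ones. The difference over culture means was -0.23 ± 0.15 (limma, adjusted p = 0.991), against -0.11 for the median gene, and it was -0.06 with arrays centred and -0.12 with quantile normalization. Under both of these scalings the treated and untreated Blcap arrays overlapped. The separation of arrays thus held for Nnat under each scaling and for Blcap only in the deposited values. The Blcap difference stayed negative under each scaling, and below the median gene (0.06 with arrays centred, 0.01 with quantile normalization).

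Nnat did not pass the test between fractions. SP minus non-SP of one number was 0.33, 0.17 and -0.04 without antibody and 0.10, 0.10 and 0.31 with it, which gave 0.15 ± 0.17 and 0.17 ± 0.17 (limma, adjusted p = 1 in both). The antibody difference in SP minus that in non-SP was 0.02 ± 0.23 (95% interval -0.49 to 0.53, adjusted p = 1). That fit leaves the fractions of one number unpaired. With the replicate number as a block, which pairs them, the SE was 0.15 and the adjusted p 0.983 (limma). Neither fit shows that the responses of the fractions were equal.

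The genes with levels most like Nnat over the 12 arrays (Pearson) were Sval2 (0.89), the neuronal filament gene Ina (0.87), Itih1 (0.85), the glutamate receptor gene Grik1 (0.84) and Sdcbp2 (0.83). The most opposite were the milk protein gene Csn2 (-0.93), Tmem200a (-0.92), Mamdc4 (-0.91), the NADPH oxidase subunit gene Ncf1 (-0.91) and Tmem81 (-0.91). These points share arrays and the treatment step, and with 18193 genes to choose from they are a description. Sval2 (mean 3.00), Grik1 (4.00) and Csn2 (4.18) had means under the lower quartile of each array, as Nnat did. Ina (4.28) lay within the range of those quartiles, and the remaining genes above it. Such low signals limit what likeness to Nnat can show. Ina lay between 3.82 and 4.30 on the untreated and between 4.23 and 4.99 on the treated arrays, so its groups overlapped. Of 19 measured neuronal and neuroendocrine markers, 5 were above and 14 below 0 over culture means, with a median of -0.04, and none passed the test. Against the median gene, 12 were above and 7 below. Other members had r between -0.47 (Peg10) and 0.17 (Igf2) with Nnat.

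Igf2 is the paternally read growth factor of fetal tissues, acting on the IGF1 and insulin receptors and cleared by Igf2r. Its lead probe set gave 11.61, 10.37 and 11.93 in untreated non-SP cells, 11.62, 9.97 and 10.58 in untreated SP cells, 12.54, 10.88 and 10.62 in treated non-SP cells and 12.20, 10.62 and 10.79 in treated SP cells. The treated culture numbered 1 was the highest and the untreated culture numbered 2 the lowest, and the groups overlapped. The other Igf2 probe set had a mean of 4.44 and an r of 0.66 with the lead.

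Averaged by culture, Igf2 was at 11.62, 10.17 and 11.25 without antibody and at 12.37, 10.75 and 10.71 with it. The span between these pairs of arrays was 4.58-fold. The labels do not say that the pairs were separate cultures, so this spread may be technical. The range over the 12 arrays was 2.57 on the log2 scale, and 80 of 18193 genes (0.44%) had a range at least as large. Among the 1232 genes with a mean at least that of Igf2, it was the 1 gene with such a range (0.0812%). Against this spread the antibody difference of 0.26 ± 0.47 over culture means was small (0.04 ± 0.59 in non-SP, 0.48 ± 0.59 in SP cells; limma, adjusted p = 0.991, 0.995 and 1 in this order). Without the treated culture numbered 2 it was 0.52, and without the treated culture numbered 1 it was -0.29. The other probe set gave -0.25 over culture means, and -0.32 without the treated culture numbered 2.

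Between fractions Igf2 differed by -0.59 ± 0.59 without antibody and by -0.14 ± 0.59 with it (limma, adjusted p = 1 in both). By number, SP minus non-SP was 0.00, -0.40 and -1.36 untreated and -0.34, -0.25 and 0.17 treated. The untreated difference was thus largest in number 3, and leaving out 1 array moved it between -1.05 and -0.21. With the replicate number as a block the error fell to 0.23, with an unadjusted p of 0.0307 and an adjusted p of 1.

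Cdkn1c encodes p57, an inhibitor of cyclin-dependent kinases that is read from the maternal copy and lies near Igf2 on chromosome 7. Its levels were 6.69, 6.37 and 6.94 in untreated non-SP cells and 6.61, 6.36 and 6.50 in untreated SP cells. With the antibody they were 7.37, 5.99 and 5.92 in non-SP and 7.58, 5.86 and 5.63 in SP cells. The treated arrays numbered 1 were thus above and those numbered 2 and 3 below all untreated arrays, and the SDs of 0.82 and 1.07 in the treated groups compare with 0.28 and 0.12 in the untreated ones. The difference was -0.19 ± 0.39 over culture means (adjusted p = 0.991, limma) and 0.04 without the treated culture numbered 2. The untreated cultures spanned 6.37 to 6.72 and the treated ones 5.77 to 7.47.

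Igf2 and Cdkn1c correlated at 0.78 over the 12 arrays and at 0.82 over the 6 cultures. Points of one culture are not independent, and the highest culture for both was the treated one numbered 1. An r with Igf2 at least as high was found for 513 of 18192 genes (2.82%), for 5 of 54 other imprinted genes (9.26%) and for 3 of 19 insulin-like growth factor genes (15.8%). The imprinted ones were Airn, the antisense RNA of the Igf2r locus (0.97), the matrix proteoglycan gene Dcn (0.92), Zim1 (0.88), Osbpl5 (0.85) and Mcts2 (0.83). The growth factor genes were Igf1 (0.92), Igfbp2 (0.91) and Igfbp6 (0.89). Outside these lists the highest were Mcpt8 (0.96), Fem1a (0.95), Ly6d (0.95) and Zyx (0.95). This search for likeness to Igf2 was added after its spread had been seen.

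**Figure D2:**
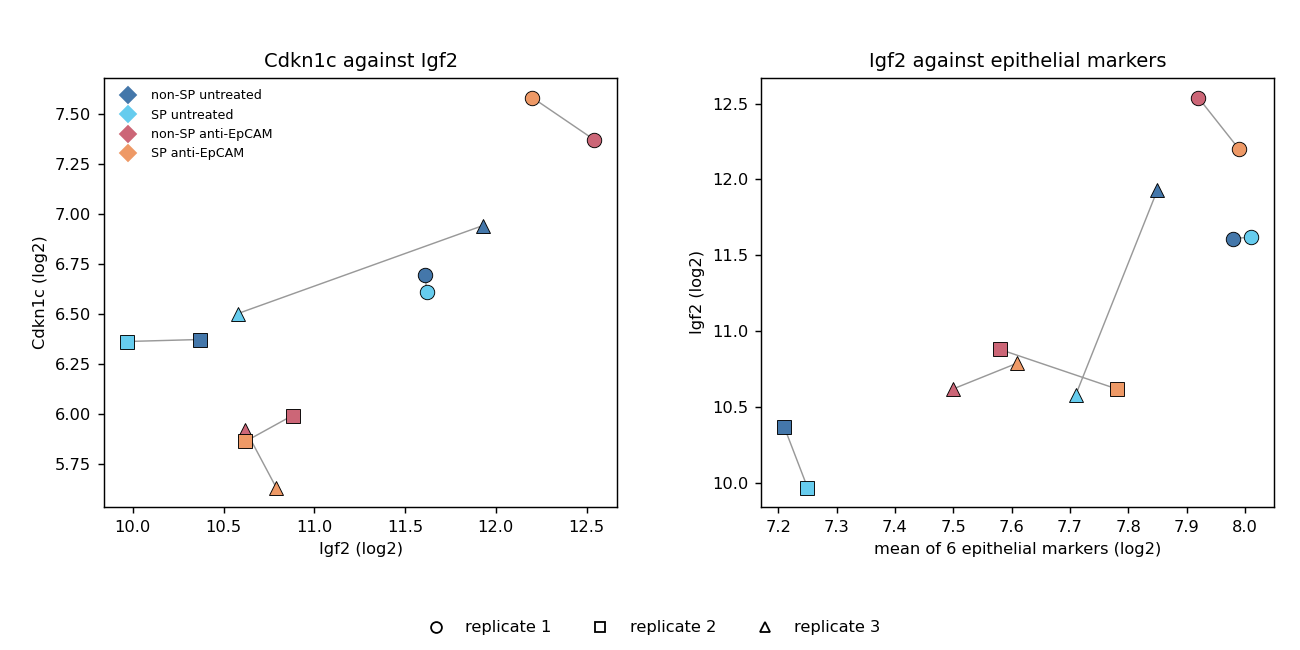
Left, log2 signal of Cdkn1c against that of Igf2 in the 12 arrays; right, Igf2 against the mean log2 level of 6 epithelial markers. Colours are groups, marker shapes replicate numbers, and grey lines join the SP and non-SP array of a culture. The 2 arrays of the treated culture numbered 1 lie at the top right of the left plot.

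The spread between these array pairs, called cultures here, reached further than Igf2 itself. Igfbp2, a secreted binding protein of insulin-like growth factors, had culture means of 10.09, 7.19 and 10.33 without antibody and 12.07, 8.94 and 6.79 with it, a span of 38.9-fold. Dcn spanned 10.1-fold, with 9.49, 8.03 and 10.03 untreated and 11.24, 8.92 and 7.91 treated. Igf1 ran from 8.65 to 9.97, and Igf2r, the clearance receptor, from 9.14 to 9.49. The mean level of the 6 epithelial markers, at 7.21 to 8.01 over arrays, had an r of 0.83 with Igf2. For the 8 fibroblast markers r was -0.49 and for the 9 alveolar and club cell markers 0.27. Dcn, a matrix gene that is not on the fibroblast list, went the other way from that list, at 0.92. Leukocyte, endothelial and neuronal marker lists gave 0.34, -0.06 and -0.05. The epithelial markers were not alike. In the treated culture numbered 1, Krt18 had its highest culture mean (7.35), while Epcam was at 8.01 in a range of 7.86 to 8.34. The part of these markers in the spread of Igf2 was not tested, and in bulk RNA fewer cells of a kind and less RNA per cell cannot be told apart.

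Grb10, an adaptor that binds the insulin and IGF1 receptors and dampens their signal, had 3 probe sets that did not behave alike. The lead gave 4.97, 4.81 and 4.87 in untreated non-SP cells, 5.38, 5.06 and 5.07 in untreated SP cells, 4.73, 5.19 and 5.15 in treated non-SP cells and 4.15, 4.66 and 5.12 in treated SP cells. The probe set with a mean of 4.80 gave 5.41, 5.17 and 4.88 untreated and 4.53, 4.60 and 4.56 treated in non-SP cells. In SP cells it gave 5.41, 5.22 and 4.70 untreated and 4.39, 4.14 and 4.61 treated. In the deposited values all 6 treated arrays lay below all 6 untreated ones on this probe set, while on the lead they overlapped. Such a separation was seen in 584 of 45037 probe sets (1.3%). It depended on scaling: the lowest untreated array (4.70) had an array median of 5.95 and the highest treated one (4.61) a median of 5.75. Relative to their medians these arrays changed order, so the treatments overlapped.

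Over culture means the Grb10 differences were -0.19 ± 0.21 on the lead, -0.66 ± 0.20 on the probe set with a mean of 4.80 and -0.50 ± 0.26 on the third, with a mean of 4.82. They were -0.03, -0.49 and -0.33 with arrays centred, and -0.24, -0.61 and -0.49 without the treated culture numbered 2. The r over arrays was 0.73 between the lead and the third, 0.48 between the lead and the separated probe set, and 0.50 between the last pair. The lead, which stands for the gene in the test over all genes, did not pass (limma, adjusted p = 0.991 over culture means). The other probe sets were not part of that test, and the separated one was singled out after its values were seen. In a separate fit over 45037 probe sets it did not pass either (limma, adjusted p = 0.992 over culture means).

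On the Grb10 lead, SP cells were above non-SP cells without antibody (0.41, 0.25 and 0.21 by number) and below them with it (-0.58, -0.53 and -0.03). The means were 0.29 ± 0.23 and -0.38 ± 0.23 (limma, adjusted p = 1 in both). The antibody difference was accordingly 0.14 ± 0.23 in non-SP and -0.53 ± 0.23 in SP cells, with adjusted p of 0.988 and 1. The difference between these, -0.67 ± 0.32, did not pass (adjusted p = 1). With the replicate number as a block its SE was 0.18, with an unadjusted p of 0.00451 and an adjusted p of 0.767 (limma). The mean of all Grb10 probe sets gave -0.37 in place of -0.67, and -0.27 in place of 0.14 in non-SP cells. A sign that turned between treatments in all numbers was seen in 499 of 18193 genes (2.74%), Grb10 included. The probe set with a mean of 4.80 gave -0.04 ± 0.21 and -0.18 ± 0.21 and the third 0.14 ± 0.31 and -0.15 ± 0.31 for the same contrasts.

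**Figure D3:**
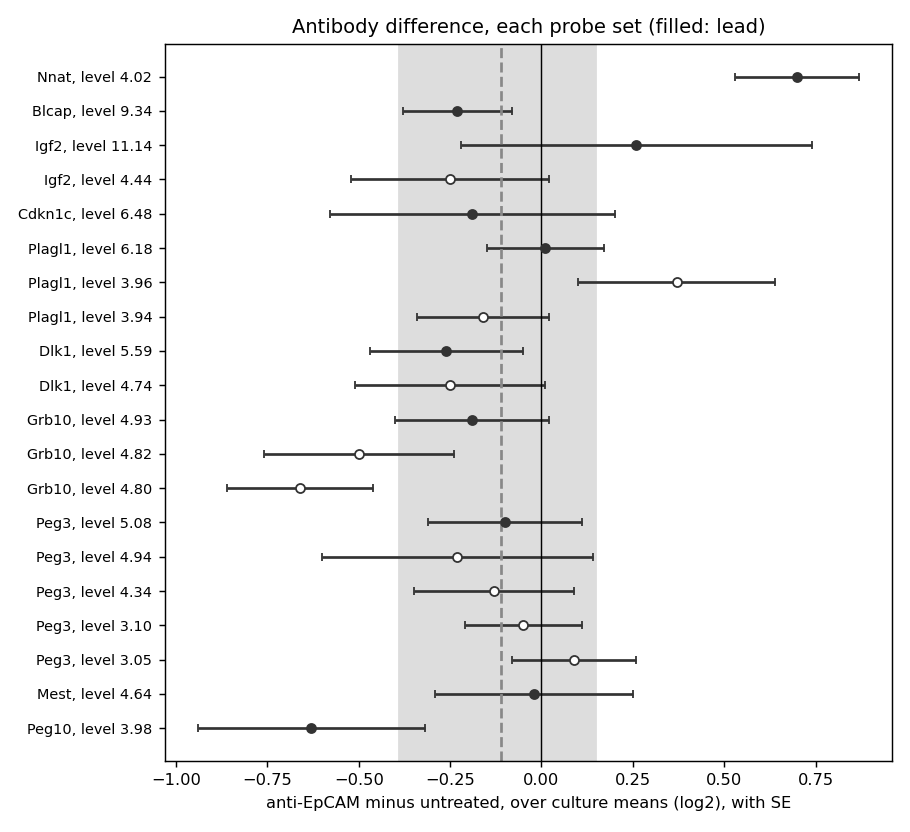
Antibody difference (log2, treated minus untreated over culture means, with SE) of every probe set of the measured genes and of Blcap, labelled by symbol and mean log2 level; filled points are lead probe sets. The dashed line is the median gene at -0.11 and the grey band the middle 90% of all genes, from -0.39 to 0.15. Nnat at 0.70 is the farthest to the right, and Peg10 and 2 Grb10 probe sets lie to the left of the band.

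Peg10, derived from a retrotransposon and needed for the placenta, is read from the paternal copy. It gave 4.30, 3.73 and 4.97 in untreated non-SP cells, 4.11, 3.81 and 4.85 in untreated SP cells, 3.30, 3.96 and 3.49 in treated non-SP cells and 3.40, 4.31 and 3.56 in treated SP cells. The treated culture numbered 2 (3.96 and 4.31) lay among the untreated arrays, and the remaining treated arrays (3.30 to 3.56) were below all untreated ones. The difference was -0.75 ± 0.35 in non-SP cells, -0.50 ± 0.35 in SP cells and -0.63 ± 0.30 over culture means, 0.648-fold (limma, adjusted p = 0.988, 1 and 0.991). It was -0.46 with arrays centred, -0.86 without the treated culture numbered 2 and -0.32 without the untreated culture numbered 3, which held the highest levels. Its mean of 3.98 over the 12 arrays was under the lower quartile of each array.

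Dlk1, a membrane protein related to Notch ligands and a marker of fetal precursor cells, gave 5.62, 5.43 and 6.02 in untreated non-SP and 5.99, 5.62 and 5.67 in untreated SP cells. With antibody it gave 5.13, 5.84 and 5.17 in non-SP and 5.36, 5.88 and 5.39 in SP cells. The treated culture numbered 2 lay among the untreated arrays, and the other 4 treated arrays were below all 6 of them. The difference over culture means was -0.26 ± 0.21 (adjusted p = 0.991, limma), -0.10 with arrays centred and -0.46 without that culture. Its lead is an s_at probe set, a kind that can take up signal from related transcripts. The other Dlk1 probe set, with a mean of 4.74, had an r of -0.16 with it over arrays, while its difference over culture means was close to that of the lead, at -0.25 ± 0.26 (-0.07 without the treated culture numbered 2). Dlk1 and Peg10, which lie on chromosomes 12 and 6, had an r of 0.78 over arrays and shared the position of the treated culture numbered 2, the one with the large actin gap. The part of RNA quality in this was not tested.

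The transcription factor genes Peg3 and Plagl1 and the hydrolase gene Mest, all read from the paternal copy, did not pass the test in any comparison. Peg3 had lead levels from 4.83 to 5.54 untreated and from 4.61 to 5.29 treated and a difference of -0.10 ± 0.21 over culture means. Its 4 other probe sets had means of 4.94, 4.34, 3.10 and 3.05 and differences of -0.23, -0.13, -0.05 and 0.09. Without the treated culture numbered 2 the lead gave -0.14 and the others -0.57, -0.16, -0.08 and -0.02. Plagl1, a zinc finger regulator of other imprinted genes, ran from 5.93 to 6.30 untreated and from 5.98 to 6.60 treated, a difference of 0.01 ± 0.16 over culture means. That mean joins 0.20 ± 0.16 in non-SP cells and -0.18 ± 0.16 in SP cells, and the difference between these was -0.38 ± 0.23 (limma, adjusted p = 1). Its 2 other probe sets gave 0.37 ± 0.27 and -0.16 ± 0.18. Without the treated culture numbered 2 the 3 probe sets gave -0.06, 0.14 and -0.09. Mest ran from 4.26 to 5.45 untreated and from 4.25 to 5.13 treated, with -0.02 ± 0.27, and -0.20 without the treated culture numbered 2. Over culture means the adjusted p was 0.991 for Peg3 and 0.997 for Plagl1 and Mest (limma). With arrays centred, the log2 differences of Peg3, Plagl1 and Mest were 0.07, 0.18 and 0.15. Peg3 and Grb10 had an r of 0.76 over arrays and Peg3 and Mest one of 0.59.

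**Figure D4:**
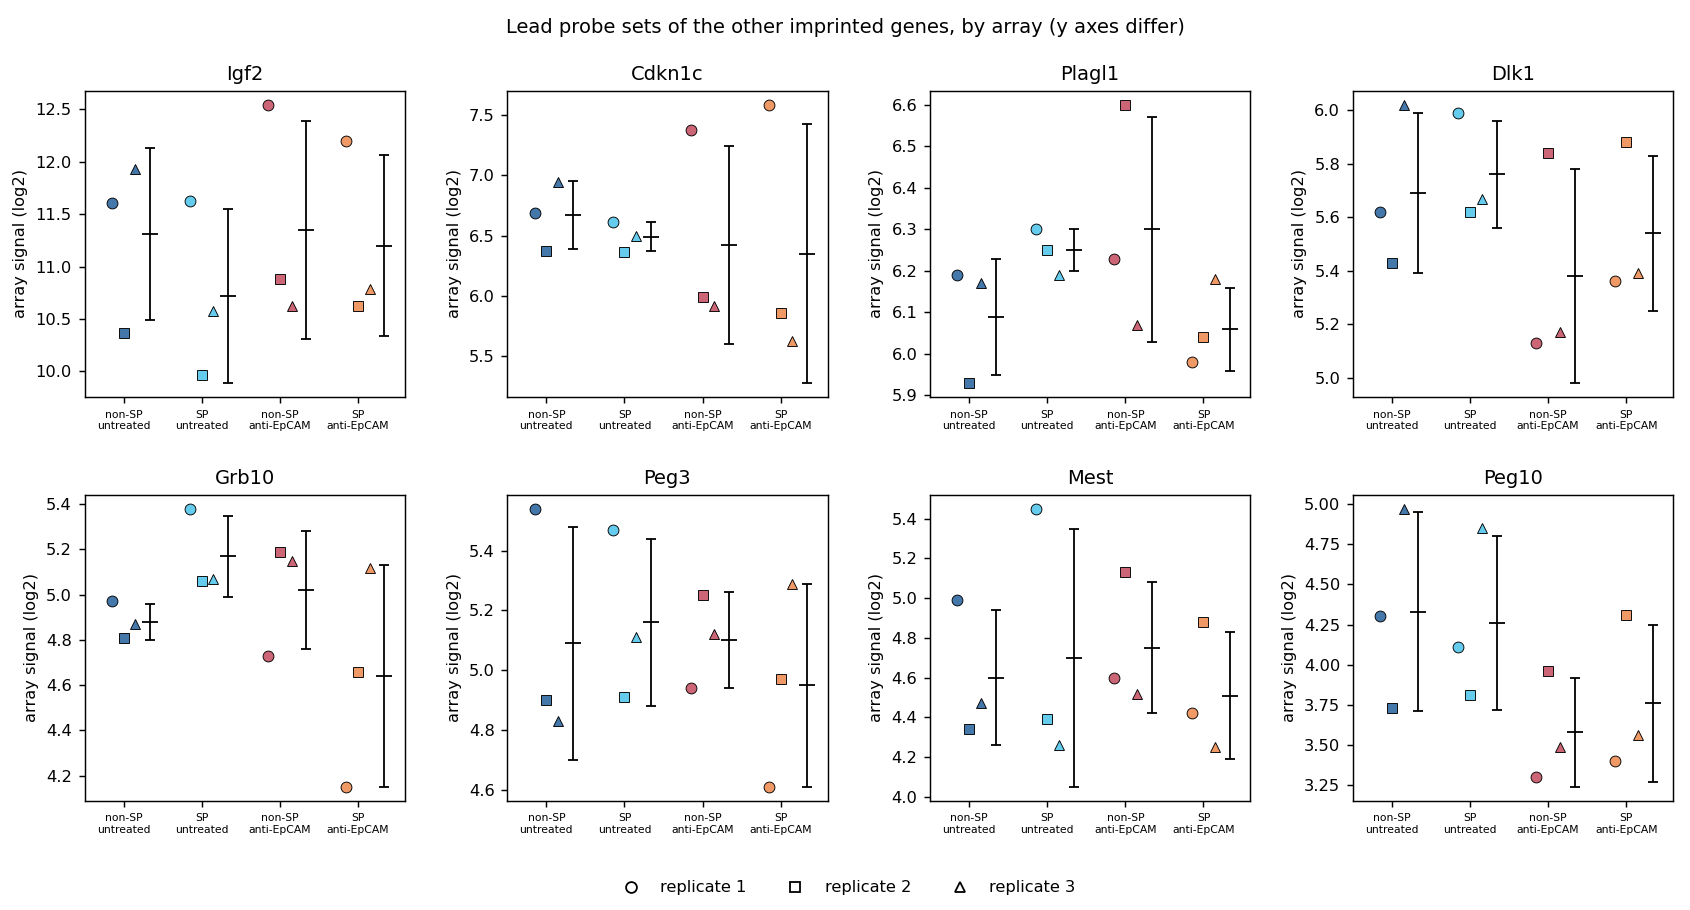
Log2 array signal of the lead probe sets of the other 8 genes by group, with marker shapes for replicate numbers and dashes with bars for group means with SD; the vertical axes differ between panels. Treated and untreated arrays overlap in every panel, and for Igf2 the range within each group exceeds the differences between group means.

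No gene of the 18193 (0%) passed an adjusted p under 0.05 in limma in any of the 6 comparisons, so none of the 9 did either. At an unadjusted p under 0.05 the antibody comparison had 585 genes in non-SP cells (3.22%), 835 in SP cells (4.59%) and 461 over culture means (2.53%). Nnat was chosen on this contrast and is left aside here. Of the remaining members, Grb10 was among these genes, in SP cells only. SP against non-SP had 4 genes (0.022%) without and 127 (0.698%) with antibody and the interaction 43 (0.236%), with no member among them. This fit leaves the fractions of one number unpaired although they deviated together, which widens the errors of these contrasts. For Cdkn1c without antibody the SE was 0.46, against 0.13 with the replicate number as a block. The low shares are therefore no evidence that the fractions were alike. In limma with the replicate number as a block, which pairs the fractions, some members were under an unadjusted 0.05. These were Igf2 and Grb10 without antibody, Grb10 with it and Grb10 for the interaction. Of all 18193 genes, 305 were under it without antibody, 1311 with it and 1002 for the interaction. Grb10 then had an unadjusted p of 0.0465 without antibody (limma, adjusted p = 1) and of 0.014 with it (limma, adjusted p = 0.628). Without the block, no adjusted p in the 6 comparisons was under 0.776 (limma). The median gene had a 95% interval of 0.46 to either side (0.65 for the interaction, 0.43 over culture means).

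As a group the 9 genes lay on both sides of 0. Over culture means 3 were above 0 (Nnat, Igf2, Plagl1) and 6 below, with a median of -0.10 against -0.11 for all genes. Between fractions the median was 0.07 without antibody (6 above 0, 3 below) and -0.14 with it (3 above, 6 below), against 0.01 and -0.03 for all genes. These 2 contrasts use different arrays.

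Of 60 other imprinted genes, 54 were measured and none passed the test. Over culture means 13 were above and 41 below 0, from -0.43 (Th, which encodes tyrosine hydroxylase) to 0.30 (Peg12), and the median of -0.07 was close to that of all genes, with 32 above and 22 below the median gene. The lowest p values were those of Kcnq1, a potassium channel gene (-0.33 ± 0.19), Mkrn3, a ring finger gene (-0.27 ± 0.16), and Blcap. Within a fraction, Kcnq1 differed by -0.72 ± 0.24 in SP cells (adjusted p = 1) and Mkrn3 by -0.40 ± 0.16 in non-SP cells (adjusted p = 0.988). In the deposited values none of the 54 was separated upward, against 0.0605% of all genes, and Blcap was the 1 separated downward, against 0.907%. With arrays centred or quantile normalized none was separated downward.

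The loci of the members were read gene by gene. In the region of Igf2 and Cdkn1c, 14 genes split 7 above and 7 below the median gene. The 8 genes around Peg10 split 4 and 4, the 4 around Dlk1 3 and 1, the 3 around Peg3 2 and 1, and the 3 around Mest lay above the median gene. Sgce, which shares a control region with Peg10, differed by 0.29 where Peg10 differed by -0.63. Meg3, the maternally read RNA next to Dlk1, differed by -0.05, and Copg2 next to Mest by 0.00. Ddc beside Grb10 differed by -0.32.

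**Figure D5:**
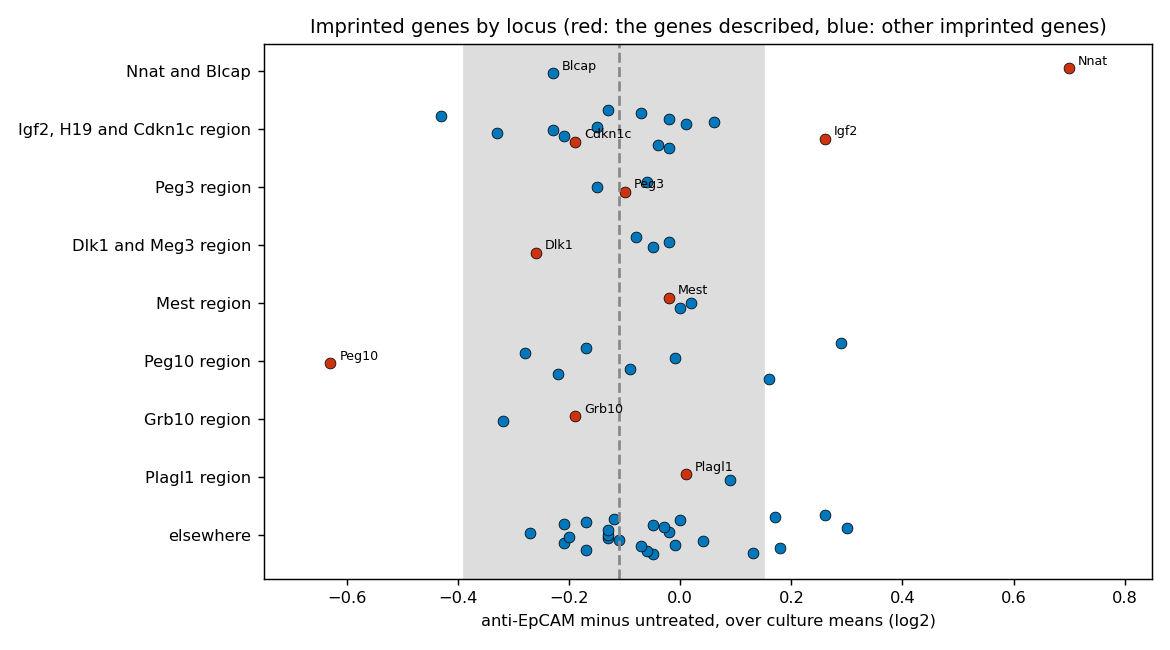
Antibody difference (log2, over culture means) of 63 imprinted genes by locus; red points are the genes described and blue points other imprinted genes. The dashed line is the median gene at -0.11 and the grey band the middle 90% of all genes, from -0.39 to 0.15. Nnat at 0.70 and Peg10 at -0.63 are the points farthest to the right and left.

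None of the genes that set and keep imprints passed the test. Of 24 listed, 23 were measured, with 3 above and 20 below 0 and a median of -0.11, equal to that of all genes, and 13 lay above and 10 below the median gene. The lowest p values belonged to Ctcf, the insulator protein of the Igf2 and H19 control region (-0.32 ± 0.18), the histone methyltransferase gene Ehmt2 (-0.21 ± 0.16) and Dnmt3l, a cofactor of germ-line methylation (-0.34 ± 0.27). Among 19 of 20 insulin-like growth factor genes, 8 were above and 11 below 0, but 13 above and 6 below the median gene (median -0.04). The lowest p values were those of the receptor substrate Irs2 (0.22 ± 0.17), Igfbp7 (-0.27 ± 0.23) and the adaptor Grb14 (-0.26 ± 0.26). The 14 kinase inhibitors and G1 cyclins had 3 above and 11 below 0, but 9 above and 5 below the median gene (median -0.06), with the lowest p for Ccne2 (-0.42 ± 0.30), Cdk2 (-0.24 ± 0.21) and the p27 gene Cdkn1b (-0.29 ± 0.29). The adjusted p was 0.991 for each of these genes (limma, culture means).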

How the data were processed

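Expression was measured on 12 arrays of the Affymetrix mouse genome type, from 200 ng of total RNA each per the labels' protocols. The deposited values are log2 signals that the authors made by RMA, per the submitters' processing notes. The sources used here do not give the software or any further scaling. Probe-level files were not used, and 3 arrays a group limit the precision. Of 45101 probe sets, 34958 had 1 gene symbol in the platform annotation, 932 several and 9211 none. The 64 control probe sets were left out of the tests. Among probe sets with 1 symbol, the one with the highest mean over the 12 arrays stood for its gene (18193 genes). No filter on level was applied.

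The limma package (3.58.1, in R 4.3.3) fitted group means over 12 arrays with 8 residual degrees of freedom, by lmFit and eBayes with no trend, and tests were two-sided. Culture means (the 2 fractions with one number and treatment, averaged) were compared 3 against 3 in a fit of their own. P-values were adjusted by Benjamini-Hochberg over all 18193 genes, with a threshold of 0.05. A separate fit over 45037 probe sets, adjusted over these, gave the values of probe sets that do not lead. The members and lists were chosen with earlier results of these data known. Named are the members, up to 3 genes of each list with the lowest p, the 5 genes most like and most opposite to Nnat, and Blcap. Other genes (neighbours at the loci, genes like Igf2, the ends of a list's range and those among the other observations) were named after their values were seen. The labels name biological replicates of one line, and nothing says that they were separate cultures, so p-values measure the spread between these samples, which may be technical.

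On simulated data of the same size, the comparison in non-SP cells recovered 50% of 2-fold and 97% of 4-fold changes. That in SP cells recovered 53% and 98%, and that over culture means 69% and 100%. The simulated arrays were independent, without the deviations that arrays of one culture share here. The higher recovery over culture means therefore does not carry over to these data. Their median gene had a 95% interval of 0.43 to either side over culture means and 0.46 within a fraction. Same-numbered arrays deviated from their group means together within a treatment (r of 0.55 to 0.84 between fractions) and between treatments at -0.38 to -0.01, so numbers pair fractions and not treatments. Promoter windows come from RefSeq, build GRCm38.p6. Scaling, a filter on low values, the mean of all probe sets, limma with trend, the replicate block and leaving out arrays were tried as alternatives. Figures were drawn with Python 3.11.15, pandas 2.3.3 and matplotlib 3.10.9.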

Additional observations from a re-analysis of the deposited data

Results flagged for a closer look

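The fraction difference of the Grb10 lead probe set had opposite signs under the 2 treatments in every replicate number. SP minus non-SP averaged 0.29 on the log2 scale without antibody (0.41, 0.25 and 0.21) and -0.38 with it (-0.58, -0.53 and -0.03). The interaction in limma, which tests the difference itself, gave -0.67 ± 0.32 with an unadjusted p of 0.0568 and an adjusted p of 1. With the replicate number as a block the unadjusted p was 0.00451 and the adjusted p 0.767. Leaving out 1 array moved the value between -0.91 and -0.42, and the mean of all Grb10 probe sets gave -0.37. The same turn of sign was counted in 499 of 18193 genes (2.74%), and neither of the other 2 Grb10 probe sets showed it in every number.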

How the results depend on the processing

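The 78 counts of genes past an adjusted p of 0.05 under the alternatives were 0 in each, as in the analysis reported, which says nothing of stability. With the replicate block the counts also stayed at 0, and the genes at an unadjusted p under 0.05 numbered 305 and 1311 for SP against non-SP without and with antibody, 1002 for the interaction and 930, 1158 and 349 for the antibody in non-SP cells, SP cells and culture means. For the fractions and the interaction the block was the replicate number within a treatment, which pairs the fractions. For the antibody it was the number across treatments, where same-numbered arrays did not deviate together (r from -0.38 to -0.01). The antibody counts under the block thus rest on no real pairing. The block changed no call. Among 54 member differences, the sign turned in 5 with arrays centred, in 4 with quantile normalization, in 4 with the mean of all probe sets, and in none with the trend or the block. Leaving out 1 array or culture turned 55 of 378 values. The filter on low values kept 1 member, Igf2. Over culture means Peg3 and Mest were at -0.10 and -0.02 as deposited and at 0.07 and 0.15 with arrays centred. Nnat ran from 0.60 to 0.76 when 1 culture was left out, Peg10 from -0.89 to -0.32, Grb10 from -0.35 to 0.00, Cdkn1c from -0.73 to 0.12 and Igf2 from -0.29 to 0.56. Leaving out the treated culture numbered 2 was an alternative for all probe sets that was chosen after seeing the data. The low signal of Nnat and Peg10, near or under the lower quartile of an array, limits what their values can show.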

Other observations

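Outside the comparisons, some imprinted genes of other loci had a wide range over the 12 arrays that did not follow the treatment. Dcn lay between 8.01 and 11.06 without antibody and between 7.85 and 11.38 with it. Ube3a, a ubiquitin ligase gene, lay between 8.29 and 9.11 without and between 7.82 and 9.55 with antibody, and Sfmbt2, a polycomb gene, between 5.15 and 6.76 and between 5.41 and 6.79. Gnas, the gene of a G protein subunit, had a narrow range, from 13.20 to 13.39 without and from 13.20 to 13.41 with antibody. Impact had an r of -0.80 with Igf2 over the 12 arrays, which share cultures, so this is a description.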
